A study of Mus musculus with 6 samples.

Results

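The genes of the proteasome described here are the protein-coding mouse genes whose symbol begins with *Psma*, *Psmb*, *Psmc*, *Psmd* or *Psme* followed by a digit. The annotation holds 46 such genes, and 45 of them were among the 16381 genes with a value. Of these, 44 passed the filter on low values and entered the test over 14419 genes. The symbol of 2 tested genes, *Psmc3ip* and *Psme3ip1*, resembles the others although their products, a recombination factor and a partner of the activator PSME3, are not proteasome subunits, which leaves 42. *Psmb11*, the thymus-specific catalytic subunit, was not listed. *Psma8*, the testis-specific alpha subunit, was listed at 0, 0 and 7.34 normalized counts in the vehicle libraries and at 1.87, 6.56 and 1.01 with melatonin, too low to be tested.

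The proteasome degrades proteins that have been tagged with ubiquitin. Its core particle is a barrel of alpha rings and beta rings, in which 3 kinds of beta subunit cut the substrate. In immune cells and under interferon these are replaced by the immunoproteasome subunits, which change the peptides made for MHC class I. A regulatory particle of ATPases and non-ATPase subunits recognises, unfolds and feeds in the substrate, and other activators can cap the core in its place.

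The cells were aILC2s, activated group 2 innate lymphoid cells sorted from the lungs of WT BALB/c mice that had received 0.5 µg of IL-33 a day for 3 days. Every group carried this IL-33 exposure. One group was cultured for 24 h with 250 µM melatonin and the other with the solvent DMSO, called vehicle, with 3 bulk RNA libraries each, and the methods give female animals of 6 to 8 weeks. The sort kept lineage-negative cells with ST2 and CD127. Nothing in the sources says which mice each culture came from, so p-values measure the spread between these libraries, which may be partly technical. The study describes BALB/c mice as genetically deficient in making their own melatonin.

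The libraries held between 17056267 and 20511700 estimated counts. All 9 markers of ILC2s were present, at a summed level of 114941 to 119742 with vehicle and 87833 to 88589 with melatonin, and 5 of the 9 were lower and 2 higher with melatonin. Of the lists for other cells, 3 of 7 T cell genes were listed and all 3 were lower (1203 to 1336 with vehicle and 458 to 868 with melatonin), as were 5 of 6 listed macrophage and dendritic cell genes (1452 to 1649 and 364 to 845). The 4 NK cell genes summed to 203 to 266 and 19.6 to 30.6, and the 2 listed B cell genes to 289 to 322 and 131 to 162. Listed granulocyte and mast cell genes, 3 of 7, summed to 15.9 to 70.9 and 0 to 4.37. The 1 of 3 listed endothelial genes, *Pecam1*, had 1001 to 1066 and 310.0 to 416. The 4 of 5 listed epithelial genes, of which 3 were lower and 1 higher, summed to 917 to 2155 and 1040 to 1260. Among them, *Scgb1a1* had 95.21, 21.55 and 1045 with vehicle and at most 1.005 with melatonin. *Sftpc* had 154.9, 121.8 and 389.3 with vehicle and at most 6.537 with melatonin. *Epcam* rose from 622.6, 744.9 and 633.7 to 1230, 1016 and 1046. No fibroblast gene was listed. The markers *Cd4*, *Cd5*, *Ms4a1* and *Epx* were not listed. Other markers of these lists were present with vehicle, such as *Cd3g* at 1004 to 1097 and *Cd3e* at 192 to 225.8. *Cd79b* stood at 280 to 313.9 and *Ncr1* at 101.2 to 114.4 with vehicle. The part of these lists in the results below was not tested. Transcripts of the Y chromosome were present in the 3 vehicle libraries and in melatonin replicate 1 (*Ddx3y* at 746 to 1071) and at 0 in melatonin replicates 2 and 3, in which *Xist* stood at 579 and 1091 against at most 13.6 elsewhere, so the melatonin libraries did not all come from the same animals. Y-linked transcripts do not match the female animals that the methods give, and all vehicle libraries had them. Libraries with and without Y-linked transcripts are therefore unevenly spread over the groups, and log2 fold changes are also given for the 4 libraries with Y-linked transcripts. These set 1 melatonin library against 3 vehicle libraries and are given as values, without p-values. The limma fit was run on them too, and its calls enter the closing counts over all alternatives.

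With melatonin, nearly all tested transcripts of the core particle fell, most of those of the regulatory particle fell by a smaller amount, and no member rose in the limma fit. Of the 44 members tested, 34 were lower, 0 were higher and 10 passed no threshold in the limma fit at an adjusted p of 0.05. Over all genes tested, 24.7% were called lower and 24.5% higher. When only genes whose mean reached 1000 normalized counts were counted, a level that 42 of the 44 members reach, these shares were 30.6% and 30.0%. No member was higher at an unadjusted p under 0.05 or with limma's voom, while 1 was called higher with scaling to the same total and with the GC correction (*Psme3ip1* in both) and 1 with quantile normalization (*Psmd2*, at 0.32 with an adjusted p of 0.013). Without the 2 genes that share only the name, 33 of 42 were lower.

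The median log2 fold change of the members was -0.37, against -0.005 over all genes tested. All melatonin values lay below all vehicle values in 40 members and above them in 3, where 30.3% and 30.0% of all genes tested did so. Each library can be read from the median of its members relative to the vehicle mean. On this log2 scale the vehicle libraries stood at 0.04, 0.01 and -0.06 and the melatonin libraries at -0.52, -0.31 and -0.30. Melatonin replicate 1 was the lowest of the melatonin libraries in 33 of the 44 members, against 38.9% of all genes tested, and it is the melatonin library with Y-linked transcripts. When melatonin replicate 1 was left out, 33 members were lower and 0 higher. Melatonin replicates 2 and 3, which remain in that fit, lack Y-linked transcripts, while all vehicle libraries have them. Treatment and this difference cannot be told apart there. In these bulk libraries, fewer cells of a type and less RNA per cell cannot be told apart.

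**Figure D1:**
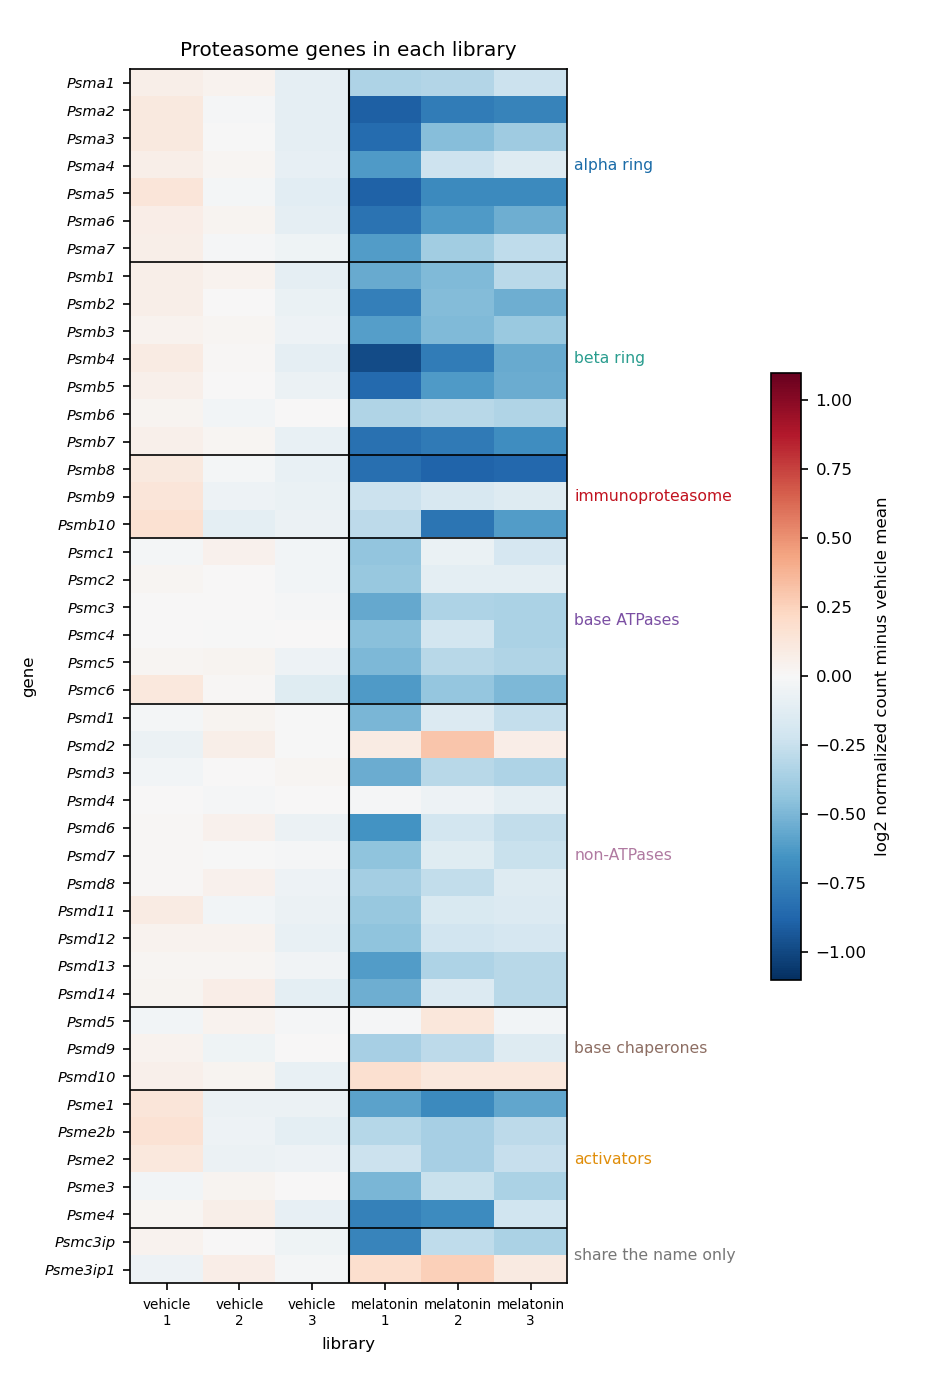
Heat map of the 44 tested genes (rows, grouped by role) in the 6 libraries (columns); the colour is the log2 normalized count minus the mean of the 3 vehicle libraries. The melatonin columns are blue in nearly all rows, deepest in the alpha and beta rings and in melatonin replicate 1, while *Psmd2*, *Psmd10* and *Psme3ip1* are pale red.

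The core particle is the barrel in which proteins are cut. Of its 14 tested genes, 13 were lower and none was higher, with a median log2 fold change of -0.58 and a range from -0.80 to -0.30. The fold changes came from a median of -0.78, -0.49 and -0.47 in the melatonin libraries and 0.06, 0.01 and -0.10 in the vehicle libraries. In 11 of the 14 genes the call held in each of 19 other ways of analysing the table. With the 4 libraries that carry Y-linked transcripts the median was -0.78.

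The alpha ring forms the gate through which substrates enter, and 6 of its 7 tested genes were lower. *Psma2* (chr13:14787804-14848821, GRCm39) fell from 8907, 8207 and 7714 normalized counts with vehicle to 4428, 4842 and 4950 with melatonin. Its groups are far apart, at 8276 ± 600 and 4740 ± 276 (SD, n = 3), and its log2 fold change was -0.80 (SE 0.08, adjusted p 0.00017). *Psma1* fell from 8639, 8491 and 7698 to 6523, 6623 and 7029. Its groups also did not overlap, with a log2 fold change of -0.30 (SE 0.08, adjusted p 0.012), but the call was lost with quantile normalization and without vehicle replicate 1 or 2. *Psma5* and *Psma6* were at -0.76 and -0.66, followed by *Psma3* at -0.57 and *Psma7* at -0.43. *Psma4*, the gene of the ring that missed the threshold, had values of 4399, 4272 and 3934 with vehicle and 2719, 3588 and 3807 with melatonin, in which replicate 1 stood apart from the other two. Its log2 fold change was -0.33 (adjusted p 0.052), and 7 of 19 other analyses called it lower. Without melatonin replicate 1 it was -0.18, against -0.28 for *Psma1*.

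All 7 constitutive subunits of the beta ring, which holds the cutting sites, were lower, with a median of -0.59. *Psmb4*, a subunit with no cutting site, fell from 4443, 4208 and 3897 to 2108, 2455 and 2847. The melatonin values spread more widely here, at 2470 ± 370 against 4182 ± 274 (SD, n = 3), yet no melatonin library came near the lowest vehicle library, and the log2 fold change was -0.77 (SE 0.11, adjusted p 0.0008), next to -0.76 for *Psmb7*. The other structural subunits *Psmb1*, *Psmb2* and *Psmb3* were at -0.45, -0.59 and -0.50.

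The catalytic subunits of the beta ring come as constitutive and immunoproteasome versions that take the same place: *Psmb5* or *Psmb8* with chymotrypsin-like activity, *Psmb6* or *Psmb9* for the caspase-like place, and *Psmb7* or *Psmb10* with trypsin-like activity. Of the immunoproteasome genes 2 of 3 were lower, with a median log2 fold change of -0.57 in a range from -0.86 to -0.18, so this group spans more than the constitutive ring, whose range was -0.77 to -0.32. With a correction for transcript length, the median of the immunoproteasome genes was -0.32 and *Psmb8* alone was called. With the 4 libraries that carry Y-linked transcripts the median was -0.29.

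*Psmb8* (ENSMUSG00000024338, chr17:34416690-34420428) had the lowest log2 fold change of the members in the limma fit, but not with quantile normalization, with corrections for transcript length or GC content, without melatonin replicate 3 or with the 4 libraries that carry Y-linked transcripts. *Psma2*, for example, was at -0.94 with the GC correction, where *Psmb8* was at -0.74. It held 21335, 19579 and 18694 normalized counts with vehicle and 11164, 10742 and 10896 with melatonin. The melatonin libraries lay within a narrow band, at 10934 ± 214 against 19869 ± 1340 (SD, n = 3), and the loss was about equal in all of them. The log2 fold change was -0.86 (SE 0.08, adjusted p 9.8e-05), so that the level fell by 44.9%. Its constitutive partner *Psmb5* (chr14:54850776-54855481) went from 3119, 3004 and 2873 to 1660, 1942 and 2052, a log2 fold change of -0.67 (SE 0.09, adjusted p 0.00062).

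*Psmb9* (chr17:34400960-34406738) was the immunoproteasome gene that was not called. Its values were 4401, 3867 and 3814 with vehicle and 3415, 3565 and 3641 with melatonin. The groups did not overlap, but the gap between them was small beside the spread of the vehicle libraries, and the log2 fold change of -0.18 (SE 0.08) passed no threshold, with an adjusted p of 0.09. Its partner *Psmb6* (chr11:70416183-70418684) showed the tightest replicates of the catalytic genes, 7076, 6801 and 6945 against 5532, 5623 and 5501, and a log2 fold change of -0.32 (SE 0.07, adjusted p 0.0043). With a correction for transcript length that call was lost.

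*Psmb10* (chr8:106662362-106665077) differed between melatonin libraries. It had 2036, 1685 and 1735 normalized counts with vehicle and 1482, 1041 and 1186 with melatonin, where replicate 1, the lowest for most members, was the highest. The log2 fold change was -0.57 (SE 0.14, adjusted p 0.0083), and among the 4 libraries with Y-linked transcripts, where replicate 1 is the only melatonin library, it was -0.29. With the correction for transcript length it was -0.32 with an adjusted p of 0.092. *Psmb7* (chr2:38478044-38534099), its partner, was at 4248, 4132 and 3863 with vehicle and at 2312, 2376 and 2533 with melatonin, a log2 fold change of -0.76 (SE 0.08, adjusted p 0.00015). Of the transcript of *Psmb7*, 34.9% lies over exons of *Nek6* on the other strand, whose log2 fold change was -0.75, and of *Psmb9* 26.9% lies over exons of *Tap1*, at 0.08. The library kit does not mark the strand, so reads from these shared stretches cannot be told apart.

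The ratio of each immunoproteasome gene to its partner is taken within a library and does not depend on the scaling between libraries. The log2 ratio of *Psmb8* to *Psmb5* was 2.77, 2.7 and 2.7 with vehicle and 2.75, 2.47 and 2.41 with melatonin. Melatonin replicate 1 lay among the vehicle libraries and the other two below them, with a mean difference of -0.19. For *Psmb9* to *Psmb6* the log2 ratios were -0.69, -0.81 and -0.86 with vehicle and -0.70, -0.66 and -0.60 with melatonin. Here the difference was 0.14 and one library in each group stood in the range of the other. The ratios of *Psmb10* to *Psmb7*, at -1.06, -1.29 and -1.15 and then -0.64, -1.19 and -1.09, differed by 0.19, mostly through melatonin replicate 1, since without it the difference was 0.03. In none of the 3 pairs were the groups separate, and they did not shift in one direction.

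**Figure D2:**
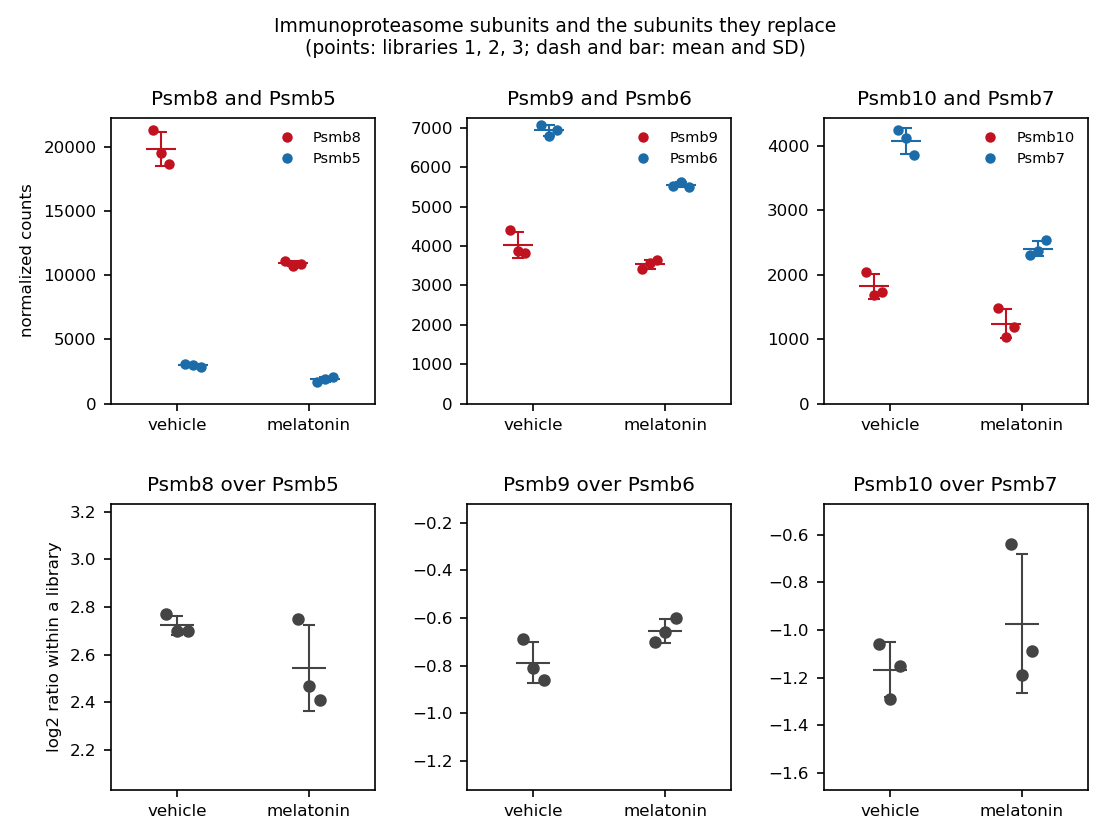
Top row, normalized counts (axis from 0) of the 3 immunoproteasome genes (red) and of the constitutive genes they replace (blue) per library; bottom row, the log2 ratio of the pair within each library, with dash and bar for mean and SD. *Psmb8* drops from a mean of 19869 to 10934, *Psmb9* goes from a mean of 4027 to 3540, and the ratios overlap between groups in all 3 pairs.

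The promoters of 5 of these 6 genes are shown because each pair of genes takes the same place in the ring under a promoter of its own. Each run gives the 150 bases before the annotated start in GRCm39, in the direction of transcription, where no annotated exon lies. Capitals mark TGACNNNGC, the core of the element bound by the factors NRF1 and NRF2, or CCAAT, the box bound by NF-Y, on either strand. The windows are chr14:54855482-54855631 (minus strand) for *Psmb5*, chr11:70416033-70416182 (plus) for *Psmb6*, chr2:38534100-38534249 (minus) for *Psmb7*, chr17:34416540-34416689 (plus) for *Psmb8* and chr8:106665078-106665227 (minus) for *Psmb10*.
Psmb5: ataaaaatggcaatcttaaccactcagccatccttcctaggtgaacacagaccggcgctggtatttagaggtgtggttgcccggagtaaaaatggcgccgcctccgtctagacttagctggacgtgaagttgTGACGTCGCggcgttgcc
Psmb6: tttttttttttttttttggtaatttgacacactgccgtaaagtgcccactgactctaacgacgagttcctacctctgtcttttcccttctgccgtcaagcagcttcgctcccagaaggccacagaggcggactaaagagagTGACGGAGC
Psmb7: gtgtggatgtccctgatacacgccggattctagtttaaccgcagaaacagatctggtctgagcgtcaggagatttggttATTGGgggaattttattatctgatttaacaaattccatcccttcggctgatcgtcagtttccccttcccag
Psmb8: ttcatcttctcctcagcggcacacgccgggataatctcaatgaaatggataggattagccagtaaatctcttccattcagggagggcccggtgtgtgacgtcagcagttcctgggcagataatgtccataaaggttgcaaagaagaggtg
Psmb10: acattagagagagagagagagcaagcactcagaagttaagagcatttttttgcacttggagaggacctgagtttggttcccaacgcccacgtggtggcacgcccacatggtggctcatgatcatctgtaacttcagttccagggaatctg
In these windows, TGACNNNGC stood in those of *Psmb5* and *Psmb6*, 18 and 9 bases before the start, CCAAT in that of *Psmb7*, and neither in those of *Psmb8* and *Psmb10*.

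Over all members, windows from 250 bases before to 50 bases after the start were searched on both strands and compared with those of 21757 protein-coding genes. TGANNNNGC stood in 17 of 44 members (38.6%) and in 40.4% of all promoters. Its narrower form TGACNNNGC, every match of which is also one of TGANNNNGC, stood in 7 members (15.9%) and in 12.5% of all. CCAAT was in 18 members (40.9%) and 39.9% of all, TTCNNNGAA, a form bound by STAT factors, in 4 (9.09%) and 8.82%, and GAAA repeated after 2 further bases, a form bound by interferon regulatory factors, in 6 (13.6%) and 3.84%. No immunoproteasome gene was among these 6, and TTCNNNGAA stood in *Psmb8* alone of the 3. A match is a run of letters, not a known site.

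The regulatory particle caps the barrel and selects what enters it. Of its 17 tested genes 12 were lower and none was higher, with a median log2 fold change of -0.31 and a range from -0.52 to 0.16. Its medians per library were -0.46, -0.20 and -0.26 with melatonin and 0.01, 0.02 and -0.03 with vehicle. Within each library the core median minus that of the regulatory particle was 0.05, -0.01 and -0.07 with vehicle and -0.33, -0.29 and -0.21 with melatonin. All 3 melatonin libraries thus lay below all vehicle libraries, in a difference that scaling cannot move. No test was made of it. The calls of *Psmc3*, *Psmc5*, *Psmc6*, *Psmd3* and *Psmd13* held in all 19 other analyses, 5 of the 12 genes called, against 11 of the 13 called in the core, a difference that was not tested. The core minus the immunoproteasome median, by contrast, was -0.07, 0.06 and -0.02 with vehicle and -0.49, 0.31 and 0.14 with melatonin, on both sides of the vehicle libraries.

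The 6 ATPases form the ring that unfolds the substrate, and 4 of them were lower, with a median of -0.36. *Psmc6* fell most, from 4645, 4330 and 3903 to 2772, 3191 and 3033, with a log2 fold change of -0.52 (SE 0.09, adjusted p 0.002). Its groups of 4292 ± 372 and 2999 ± 212 (SD, n = 3) did not overlap. *Psmc2* went from 4519, 4463 and 4372 to 3331, 4131 and 4143. Melatonin replicate 1 was far below the other two, and the log2 fold change of -0.21 (SE 0.10) had an adjusted p of 0.10. *Psmc3*, *Psmc5* and *Psmc4* were lower at -0.42, -0.38 and -0.34, while *Psmc1* was at -0.23 with an adjusted p of 0.078.

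Among the 11 non-ATPase subunits, 8 were lower and the median was -0.28. *Psmd13*, a subunit of the lid, went from 5264, 5263 and 5069 to 3398, 4106 and 4214, a log2 fold change of -0.42 (SE 0.09, adjusted p 0.0061). The drop was largest in melatonin replicate 1, and the vehicle libraries had a mean of 5199 with an SD of 113. *Psmd14*, the deubiquitinase of the lid, was lower at -0.33 (adjusted p 0.03), and *Psmd1*, a scaffold of the base, at -0.31 (adjusted p 0.026).

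*Psmd2*, the other large scaffold of the base, went against this. It held 9699, 10591 and 10107 normalized counts with vehicle and 10781, 12547 and 10635 with melatonin. All melatonin values were above the vehicle values, those of replicates 1 and 3 narrowly, and the log2 fold change of 0.16 (SE 0.09) had an adjusted p of 0.17, with 0.32 after quantile normalization, which called it higher, and 0.08 without melatonin replicate 2. *Psmd4*, a ubiquitin receptor, was nearly level at 4071, 4011 and 4070 against 4007, 3907 and 3754, with a log2 fold change of -0.06 (SE 0.07, adjusted p 0.50). These 2 genes and *Psmd11*, at -0.24 with an adjusted p of 0.061, were the non-ATPases that passed no threshold. *Psmd3* and *Psmd6* were lower at -0.40 and -0.38, and *Psmd7*, *Psmd8* and *Psmd12* at -0.27, -0.26 and -0.28. The calls of *Psmd1*, *Psmd6*, *Psmd7*, *Psmd8*, *Psmd12* and *Psmd14* were each lost in 5 to 9 of the 19 other analyses.

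**Figure D3:**
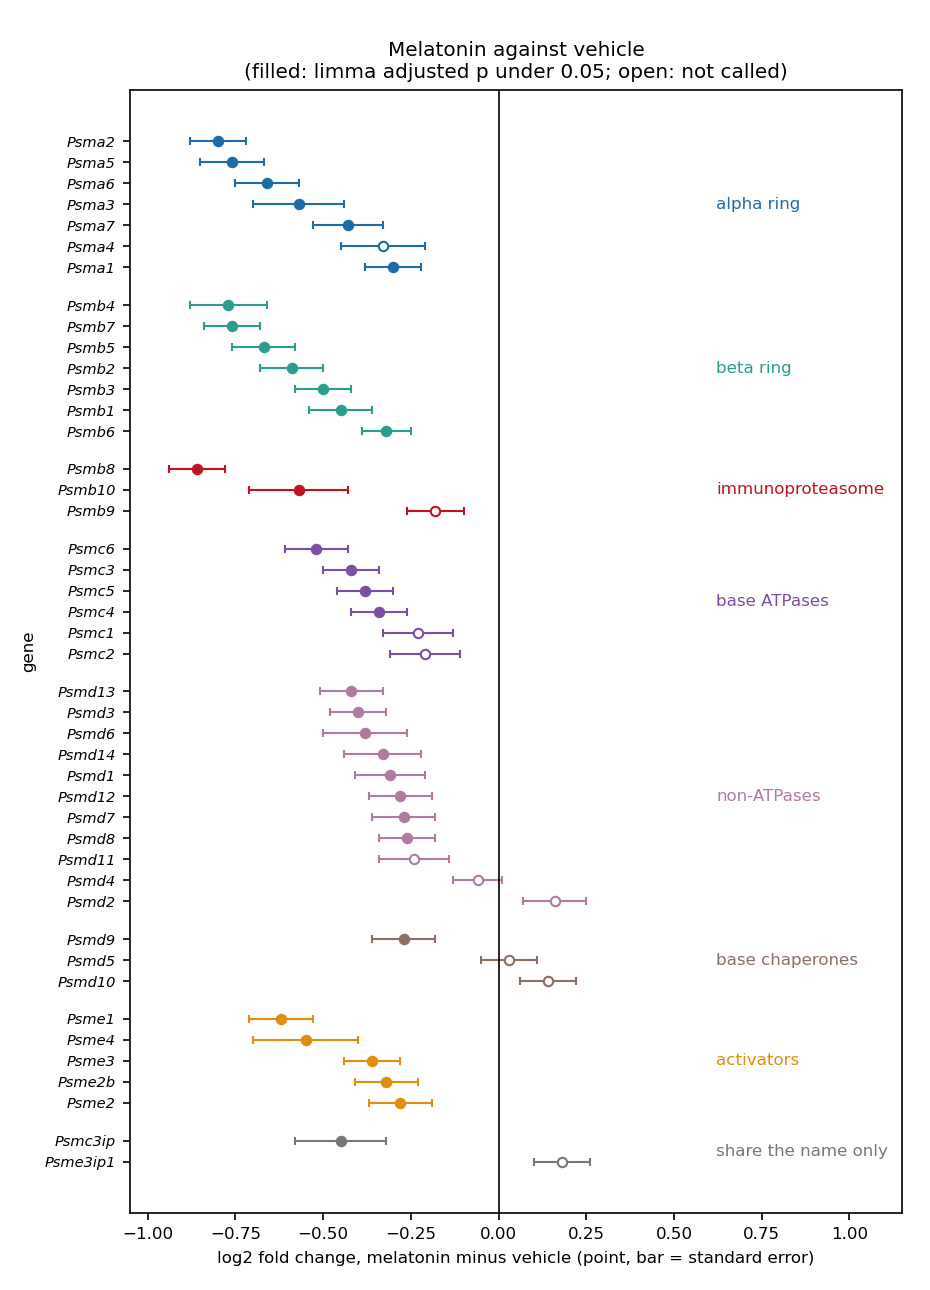
Log2 fold change of melatonin against vehicle for the 44 genes by role, with the standard error of the limma fit as bars; filled points passed an adjusted p of 0.05 and open points did not. The alpha and beta rings lie between -0.80 and -0.30, the regulatory particle between -0.52 and 0.16, and no filled point lies right of 0.

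Of the 3 chaperones that help to assemble the ATPase ring but leave the finished particle, 1 was called. *Psmd9* was lower, at 1157, 1094 and 1135 against 875, 922 and 1022, with a log2 fold change of -0.27 (SE 0.09, adjusted p 0.035), a call that 10 of 19 other analyses also made. *Psmd5* was at 2889, 3019 and 2926 with vehicle and 2917, 3213 and 2882 with melatonin, and *Psmd10*, the oncoprotein gankyrin, at 1117, 1100 and 1014 and 1218, 1169 and 1165. The groups of *Psmd5* overlapped at a log2 fold change of 0.03, while those of *Psmd10* lay just apart at 0.14 (adjusted p 0.19), and *Psmd10* is X-linked.

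All 5 tested genes of the alternative activators were lower, with a median log2 fold change of -0.36, though the calls of *Psme2*, *Psme2b* and *Psme4* depended on the analysis. *Psme1*, the alpha subunit of the interferon-inducible PA28 cap, had 4188, 3632 and 3634 normalized counts with vehicle and 2534, 2339 and 2567 with melatonin. The melatonin libraries were all well below the vehicle libraries, with a log2 fold change of -0.62 (SE 0.09, adjusted p 0.00059). *Psme2*, its beta subunit, fell from 1705, 1498 and 1514 to 1329, 1219 and 1320, with a log2 fold change of -0.28 (SE 0.09, adjusted p 0.024). Its call was lost without vehicle replicate 1 (adjusted p 0.11), without melatonin replicate 2 (0.075) and with corrections for transcript length (0.35) or GC content (0.06), and likewise without the trend (0.056). *Psme3*, the nuclear activator, was lower at -0.36. *Psme4*, the activator PA200, was lower at -0.55, from 659, 680 and 611 to 387, 401 and 557, with melatonin replicate 3 closest to the vehicle libraries, and its call was lost without vehicle replicate 2 (adjusted p 0.054). *Psme2b*, a single-exon gene that is nearly identical to *Psme2*, was lower at -0.32 (adjusted p 0.014). This turned to 0.05 with the transcript length correction (adjusted p 0.7), and the call was also lost with quantile normalization and without vehicle replicate 1.

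Of the 2 genes that share the name only, *Psmc3ip* was lower at -0.45 (adjusted p 0.019, and 0.061 without vehicle replicate 1 or 2), with 30.3% of its transcript over exons of *Mlx* on the other strand. *Psme3ip1* was at 0.18, with an adjusted p of 0.091.

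Several members have near-identical copies elsewhere in the genome, and the counting used by the authors divides reads that fit more than one gene. Copies were searched for as pseudogenes or members with at least 95% identity over at least 400 bases. *Psme2* and *Psme2b*, whose coding sequences differ at 5 of 717 bases, shared their counts so that 22.2% stood on *Psme2*. For *Psmb5*, 36.2% of the counts stood on the gene and the rest on the processed pseudogene *Gm3375*, which differs from it at 8 of 792 coding bases. How close they are can be seen in 60 bases of coding sequence of each pair, chosen as the stretch with most differences, with the bases that differ in capitals. For *Psmb5* these are coding bases 247 to 306, and for *Psme2* coding bases 484 to 543, from GRCm39 transcripts.
Psmb5: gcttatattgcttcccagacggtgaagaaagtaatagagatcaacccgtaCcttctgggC
Gm3375: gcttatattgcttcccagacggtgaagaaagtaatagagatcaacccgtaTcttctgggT
Psme2: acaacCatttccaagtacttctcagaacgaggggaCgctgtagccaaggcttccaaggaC
Psme2b: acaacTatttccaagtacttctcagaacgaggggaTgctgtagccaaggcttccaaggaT
Within such a stretch, a read that covers none of the capitals fits both genes of the pair equally well.

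*Psma3* had the smallest share on the gene itself. It held 1714, 1583 and 1482 normalized counts with vehicle, while *Gm13835*, a processed pseudogene on chromosome 6 that matches it at 100% over 665 bases, held 7615, 7580 and 6632. Both were lower with melatonin, at 882, 1146 and 1213 for *Psma3* and 4006, 4573 and 5031 for *Gm13835*. Summed with its 3 copies, *Psma3* had 5.52 times the counts, and the log2 fold change was -0.66 in place of -0.57. For *Psma5*, of whose counts 40.8% stood on the gene, the sum gave -0.75 in place of -0.76, for *Psmb5* -0.71 in place of -0.67, and for *Psmd11*, with 54.6% on the gene, -0.17 in place of -0.24. With the copies summed, where *Psme2b* was counted as *Psme2*, 33 of 43 members were lower and 0 higher. The fold changes thus moved by at most 0.09, while the levels rose up to 5.52 times.

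**Figure D4:**
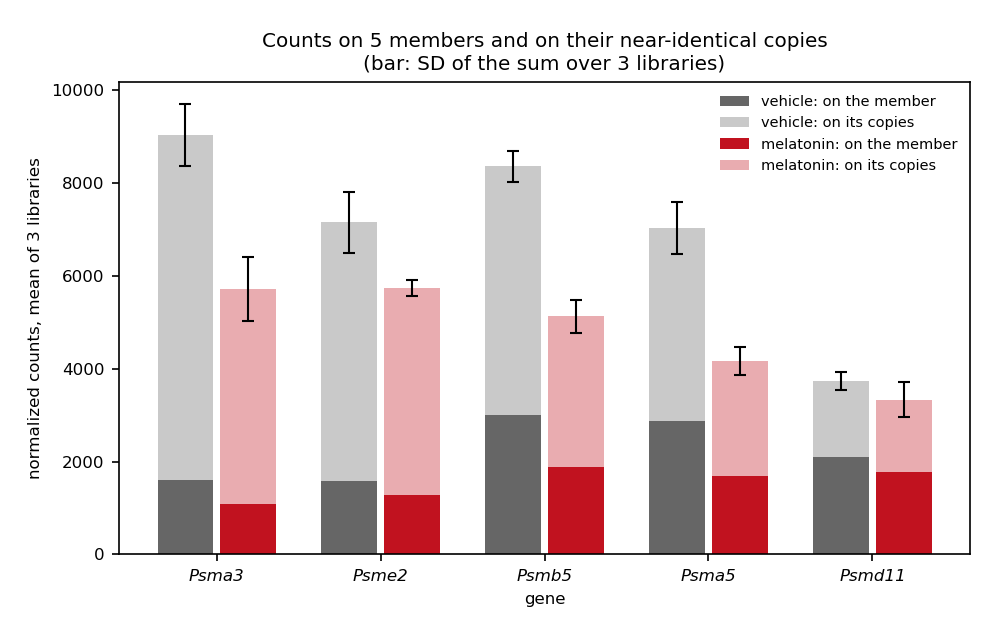
Mean normalized counts of 3 libraries for 5 genes with near-identical copies, with vehicle in grey and melatonin in red; the dark part stands on the gene, the pale part on its copies, and the bar is the SD of the sum. Most counts of *Psma3*, *Psme2*, *Psmb5* and *Psma5* stand on the copies, where both parts are lower with melatonin, while the copy of *Psmd11* has overlapping groups at a log2 fold change of -0.07.

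Levels of different genes were compared per kilobase of exon. With the union of all annotated exons as length, *Psmb8* stood at 5820 normalized counts per kilobase with vehicle and 3203 with melatonin, second to the single-exon gene *Psme2b* at 6670. *Psmb6* followed at 3163 and *Psma6* at 2594, and *Psmb5* was at 1671. *Psmb8* was 5.38 times the median member on this scale and 6.98 times with the longest transcript as length. With the canonical transcript as length it was first, at 11674, and *Psmb3* second at 9177, so the order, the place of *Psmb8* included, depends on the gene models. With the copies of *Psmb5* counted as *Psmb5*, the ratio of counts of *Psmb8* to *Psmb5* in vehicle was 2.37 in place of 6.62, and the log2 ratio changed by -0.15 with melatonin in place of -0.19.

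The fold changes can also be set beside the lengths and levels of the genes. Across the 44 genes, Spearman's rho of the log2 fold change was 0.10 with the length of the canonical transcript and -0.11 with the vehicle mean. These describe genes of the same libraries, which are not independent, and rho with length over all genes tested was 0.19.

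Other genes of the pathway did not move in one direction, and the counts below stand beside 24.7% lower and 24.5% higher over all genes tested. Of 2 further subunits, *Sem1* was lower at -0.23 (adjusted p 0.046), as in 8 of 19 other analyses, and the other, *Adrm1*, was at -0.20 (adjusted p 0.094), though 2 other analyses called it lower. Among 6 tested genes for assembly and inhibition, 5 were lower and 1 was higher. The largest fall was that of *Psmg4*, a chaperone of the alpha ring, from 504, 436 and 455 to 217, 250 and 327, with a log2 fold change of -0.83 (SE 0.16, adjusted p 0.003). *Pomp*, the maturation factor of the beta ring, was lower at -0.44, and the gene that rose was *Psmf1*, which encodes the proteasome inhibitor PI31, at 0.23 (adjusted p 0.041), a call that 10 of 19 other analyses also made. *Paaf1* was not listed.

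Of 4 genes for ubiquitin and its activating enzymes, 2 were lower, 1 was higher and 1 passed no threshold. *Rps27a*, which encodes ubiquitin fused to a ribosomal protein, fell from 975, 923 and 873 to 299, 365 and 469 with a log2 fold change of -1.31 (SE 0.16, adjusted p 0.0003). *Ubb*, the polyubiquitin gene that was far more abundant, was at 63268, 64890 and 65935 and then 80193, 71540 and 66492, with an adjusted p of 0.19. The activating enzyme *Uba1* fell by 0.65 and *Uba6* rose by 0.39, a call lost without vehicle replicate 3 and with the transcript length correction. Copies of *Rps27a* in the genome were not searched for.

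Of 12 shuttle factors, deubiquitinases and other genes listed with them, such as *Ube3c* and *Txnl1*, 3 were lower and 2 higher, near the shares over all genes. *Zfand5*, a zinc finger protein that binds the proteasome, had the largest change, from 957, 1653 and 1785 to 3560, 3648 and 3129, with a log2 fold change of 1.28 (SE 0.21, adjusted p 0.0012). The vehicle libraries varied, with replicate 1 well below the other two, but all melatonin libraries were higher. Of 7 genes of the segregase p97 and its cofactors, 1 was lower and 2 were higher, also near those shares, with *Faf2* highest at 0.63 (adjusted p 0.00033).

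Among 10 regulators of proteasome genes, 5 were higher and 1 was lower, where 24.5% of all genes tested were higher and 24.7% lower. *Nfe2l2*, which encodes NRF2, rose from 916, 1006 and 922 to 2637, 2126 and 1881, a log2 fold change of 1.21 (SE 0.12, adjusted p 0.00015). *Nfe2l1*, which encodes NRF1, the activator of proteasome genes when the proteasome is inhibited, rose by 0.29 (adjusted p 0.016), a call lost without vehicle replicate 2 or 3 and, at 0.16, with the transcript length correction. *Ngly1*, the enzyme that processes NRF1, rose by 0.93 (adjusted p 0.00024). *Nlrc5*, an activator of MHC class I genes, was the one that fell, by 0.53 (adjusted p 0.0039). *Irf1*, which drives immunoproteasome genes, had 3083, 2647 and 2451 with vehicle and 3127, 2044 and 2097 with melatonin, a log2 fold change of -0.19 (adjusted p 0.35). Melatonin replicate 1 stood above the vehicle libraries and the other melatonin libraries below them. Without melatonin replicate 1 the log2 fold change of *Irf1* was -0.39 (adjusted p 0.012). With the 4 libraries that carry Y-linked transcripts it was 0.20, the opposite sign. *Irf1* was also called lower with sample weights.

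None of the 4 genes of antigen loading was called in the limma fit, and 1 had an unadjusted p under 0.05, which voom also called. *Tap1*, next to *Psmb9* and facing away from it, was at 4302, 3850 and 3859 with vehicle and 4114, 4511 and 4070 with melatonin. *Tap2*, near *Psmb8*, was at -0.12, and without melatonin replicate 1 at -0.23 with an adjusted p of 0.02. With the 4 libraries that carry Y-linked transcripts, *Tap2* was at 0.11 and *Tapbp* at 0.72. In the limma fit *Tapbp* was at 0.38 with an adjusted p of 0.054, a rise that 7 of 19 other analyses called. It was 0.20 without melatonin replicate 1. *B2m* was at 0.22.

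**Figure D5:**
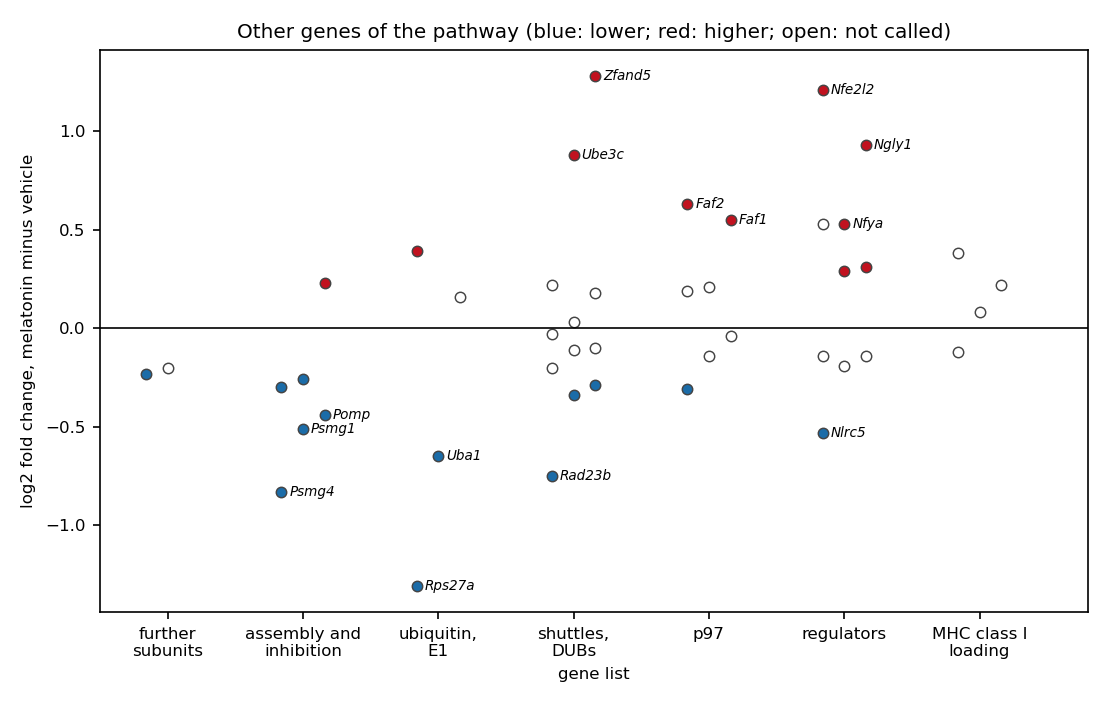
Log2 fold change of melatonin against vehicle for the tested genes of 7 lists around the proteasome, with blue for lower, red for higher and open for not called; genes called with a change of 0.4 or more are named. Assembly factors lie mostly below 0, regulators mostly above, and the genes for ubiquitin and its activating enzymes on both sides, from -1.31 to 0.39.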

How the data were processed

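Bulk RNA sequencing measured aILC2s after 24 h with 250 µM melatonin or DMSO, 3 libraries each. The authors made unstranded cDNA libraries, aligned the reads with STAR in Partek Flow to mm39, the build that the submitters' processing notes also give, divided reads among Gencode genes with the Partek E/M algorithm, removed genes with low counts in all samples and applied DESeq2's median ratio scaling. The deposited values, termed normalized counts here, are therefore a signal: read estimates over a library's size factor. Between 63.4% and 66.0% of them per library were whole multiples of the value of 1 read at a tolerance of 0.01. Whole reads were thus not recovered, and the main test used log2 values. An alternative ran limma's voom on the values divided by that of 1 read. Methods and labels differ on the amount of RNA used (picograms or nanograms). Symbols, biotypes and GRCm39 positions came from Gencode release M39, which named 16334 of 16381 identifiers.

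The test was limma 3.58.1 in R 4.3.3 (eBayes with trend) on log2 of the value plus 1, for genes with at least 10 in at least 1 library, with Benjamini-Hochberg adjustment over 14419 genes and a threshold of 0.05, so a fold change understates that of low genes. The script was tested on simulated data. Copies were found with blastn 2.17.0; their sums, the canonical length, the fit without X and Y genes and the fit to libraries with Y-linked transcripts were added after seeing the data. Members given in full are the catalytic pairs and the highest and lowest log2 fold change in each ring, the ATPases, the non-ATPases and the activators. In a list with no rise, the highest is the smallest fall. Of the lists of other genes, the called gene with the largest change was named. The remaining genes named were chosen after their values were seen. The members and lists were chosen with earlier results of these data known. Tables used Python 3.11.15 and pandas 2.3.3, figures matplotlib 3.10.9. Some single genes are not reported here.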

Additional observations from a re-analysis of the deposited data

How the results depend on the processing

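The count of members lower, 34, lay between 22 and 38 over all alternatives: 22 at an adjusted p of 0.01, 25 with quantile normalization, 26 without the trend, 28 with the transcript length correction, 38 with upper quartile scaling, and between 23 and 35 when 1 library was left out, with 23 without vehicle replicate 1. One member was called higher with scaling to the same total (1, *Psme3ip1*), with the GC correction (1, *Psme3ip1*) and with quantile normalization (1, *Psmd2*). With the 4 libraries that carry Y-linked transcripts, where the lone melatonin library is assumed to vary like the others, the median log2 fold change was -0.78 for the core particle, -0.29 for the immunoproteasome, -0.46 for the regulatory particle and -0.50 for the activators. Leaving 1 library out gave -0.64 to -0.48, -0.70 to -0.45, -0.38 to -0.21 and -0.42 to -0.33. *Psme2b* reversed to 0.05 with the transcript length correction. *Psmb8* was 6.98 times the median member with the longest transcript as length. The replicate numbers do not pair the libraries, as same-numbered libraries correlated at -0.106, 0.136 and -0.194 in their deviations from the group means; with the replicate number as a block, 30 members were lower and 0 higher. Of 966 alternative results for single members, 870 kept call and direction, 67 lost the call and 21 gained one. The sign changed in 8, of which 7 were values of *Psmd4* and *Psmd5* that neither analysis called and 1 was that of *Psme2b*. This tally includes calls from the fit to the 4 libraries with Y-linked transcripts. That fit has 1 melatonin library, so its calls cannot be judged from replicates of that group. Summing near-identical copies moved levels more than fold changes, no estimate was made without the opposite-strand overlaps, and estimated counts carry no reads from which counting error could be computed. Sex, culture and treatment cannot be told apart for melatonin replicates 2 and 3.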
